A study of Mus musculus with 92 samples.

Results

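Myelo-4 and Myelo-2 are 2 of the states that the authors' annotation gives to single cells sorted through the CD11b+ GMP-P gate, and they lie at the late end of the granulocyte path there. Membership was read from that annotation: 3 cells (numbers 54, 72 and 93) carry the name Myelo-4 and 15 carry Myelo-2, out of 47 cells in the gate and 92 in the series, the other 45 coming from a gate called GMP. All 92 cells came from bone marrow of C57BL/6 mice with the genotype Gfi1-R412X/R412X, so both states carry the mutation on both alleles and wild type cells were not analysed here. The labels give no age, treatment or time and do not tie cells to animals. Hindlimb marrow was enriched on beads for CD117, the product of Kit, before sorting, which limits the cells to those the beads kept. Each sample is 1 cell captured and lysed on a Fluidigm C1 chip, a microfluidic device that makes complementary DNA from individual cells. The gate is 1 set of cells without a replicate, so no p-value was computed and every SD below is a spread of cells, not an error between animals. The sources used here do not say how the states were assigned. If the assignment used the genes described below, their differences between the states describe the names.

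Neutrophils mature in ordered stages. Promyelocytes make the proteins of primary granules, such as myeloperoxidase and elastase. Myelocytes and metamyelocytes make those of secondary granules, such as lactoferrin. Later cells make gelatinase, the secretory vesicles and the receptors with which a neutrophil finds microbes. GFI1, a repressor with zinc fingers, is needed for this path, and CD11b, the product of Itgam, is the integrin chain that names the gate.

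The promoters of 4 genes are shown here. Retnlg had the highest difference of the genes named, and Fcnb, at 0 in all Myelo-4 cells, had the lowest. Top2a and Cdk1 act in cell division and were at or near 0 in all Myelo-4 cells, but also in a few Myelo-2 cells. Their differences (-6.03 and -5.60) were not at the extreme of the comparison, and the 2 states overlapped for both. Each run covers 250 bases before to 50 bases after the start of the gene, from RefSeq with the GRCm38.p6 build, a later build than that of the expression values. Capitals in Top2a (minus strand, chr11:99024140-99024439) and Cdk1 (minus strand, chr10:69352863-69353162) mark CCAAT, the CCAAT box, and TTTGAA, the core of the cell cycle genes homology region (CHR). Capitals in Fcnb (minus strand, chr2:28084829-28085128) and Retnlg (plus strand, chr16:48872358-48872657) mark TTGCNNAA, a pattern for C/EBP proteins. Both strands were searched, and a match on the opposite strand reads ATTGG for the CCAAT box and TTCAAA for CHR, with the C/EBP pattern likewise reversed and complemented.
Top2a: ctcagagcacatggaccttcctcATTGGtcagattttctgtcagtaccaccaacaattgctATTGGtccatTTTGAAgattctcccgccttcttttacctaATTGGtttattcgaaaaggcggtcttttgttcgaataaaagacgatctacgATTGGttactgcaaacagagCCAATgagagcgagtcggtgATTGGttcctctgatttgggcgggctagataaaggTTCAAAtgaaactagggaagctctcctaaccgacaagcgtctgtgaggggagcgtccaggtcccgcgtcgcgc
Cdk1: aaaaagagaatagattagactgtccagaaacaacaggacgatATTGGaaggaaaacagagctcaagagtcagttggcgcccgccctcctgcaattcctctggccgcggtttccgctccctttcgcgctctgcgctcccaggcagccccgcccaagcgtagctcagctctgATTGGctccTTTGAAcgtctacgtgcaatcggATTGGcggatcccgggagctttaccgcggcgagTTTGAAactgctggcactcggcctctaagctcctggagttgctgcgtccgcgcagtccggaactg
Fcnb: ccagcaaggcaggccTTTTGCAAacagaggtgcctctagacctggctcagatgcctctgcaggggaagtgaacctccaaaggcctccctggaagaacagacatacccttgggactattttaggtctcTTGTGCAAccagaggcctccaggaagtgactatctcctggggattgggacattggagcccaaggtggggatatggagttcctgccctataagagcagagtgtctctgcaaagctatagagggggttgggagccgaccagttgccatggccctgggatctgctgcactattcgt
Retnlg: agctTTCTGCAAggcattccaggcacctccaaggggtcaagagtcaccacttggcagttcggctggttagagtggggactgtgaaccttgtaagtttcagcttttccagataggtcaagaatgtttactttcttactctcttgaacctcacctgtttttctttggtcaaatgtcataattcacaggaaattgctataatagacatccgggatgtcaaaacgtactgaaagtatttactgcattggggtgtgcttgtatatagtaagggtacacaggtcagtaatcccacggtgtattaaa

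The mitosis genes that were at least 4-fold lower in Myelo-4 numbered 23, of which 21 had a promoter in the table. TTTGAA was found in 17 of these 21 windows (81%), against 18.1% of all 27025 promoters, and CCAAT in 19 (90.5%) against 37.9%. Among the 15 highest and the 15 lowest genes, TTTGAA was in 2 of 12 matched promoters each (16.7%). CCAAT was in 3 of 12 of the highest (25%) and 6 of 12 of the lowest (50%). The 21 windows come from 1 list of mitosis genes, and a tie of these letters to the lower level was not tested. TTGCNNAA was found in 4 of the 12 promoters matched among the 15 highest genes (33.3%), in 1 of 12 among the 15 lowest (8.33%) and in 0 of the 21 mitosis windows, against 10.8% of all promoters. GAGGAAG, a core pattern for PU.1, was in 1, 2 and 4 of these 3 sets (8.33%, 16.7% and 19%, against 13.5% of all), and TTCCCGC, a pattern for E2F, in 1, 0 and 0 (8.33%, 0% and 0%, against 4.66%). A match describes the letters and is not evidence of a bound site.

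Few genes were detected in either state. The 3 Myelo-4 cells held 2148, 2192 and 2319 genes with a value above 0, and the Myelo-2 cells between 1993 and 3257 with a median of 2936. The 10 most abundant genes took 60.95% to 63.5% of all TPM (a level of transcript scaled for gene length and for each cell's total) in Myelo-4 and 43.8% to 68.1% in Myelo-2. TPM keeps no read depth, so a gene listed at 0 may be absent or missed. Cells 59 (1993 genes) and 96 (2082 genes) of Myelo-2 had fewer genes than any Myelo-4 cell, and results that rest on them are given with and without them.

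For each of 2569 genes above 0 in at least 2 of 3 Myelo-4 cells or at least 8 of 15 Myelo-2 cells, the difference was the mean of log2(TPM + 1) in Myelo-4 minus that in Myelo-2. Differences below are on this scale, which understates changes of low genes. The median of all 2569 was -0.45. A mean at least 4-fold higher in Myelo-4 was found for 343 genes (13.4%), and a mean at least 4-fold lower for 653 (25.4%). Of these, 188 and 459 passed the filter only through the state where they were higher, so the filter bears on their direction. The shares of 13.4% and 25.4% are the background for the counts of list members below. Genes with all 3 Myelo-4 cells above all 15 Myelo-2 cells numbered 10 (0.389%), and those with all 3 below numbered 12 (0.467%). The split between higher and lower genes depended on scaling and on cells 59 and 96. Higher genes made 34.4% of those past 4-fold. They made 63.7% (806 higher and 460 lower) when the medians of widely detected genes were set equal, which moved the median of all genes to 0.96, 59.5% (498 and 339) against cells 59 and 96 alone, and 49.5% (485 and 494) against the 3 Myelo-2 cells of like gene number.

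The 10 genes wholly above Myelo-2 were Fpr1, Mmp9, Mmp8, Slc2a3, Ifi27, Vasp, Wipf1, Kdm6b, Ly6f and Gm14204. The 12 wholly below included Fcnb, Calm2, Calm3, Arf1, Cox7a2, Hnrnpc, Spin1, Rpl11, Rpl28, Rps4x and Rps24. Of these genes, those not among the 15 highest or lowest or in a list of the named genes rule are named because their cells did not overlap, after their values were seen. Ly6f and Gm14204 stayed under 10 TPM in every one of the 18 cells, and Ly6f has close paralogs with which its reads can be shared.

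**Figure D1:**
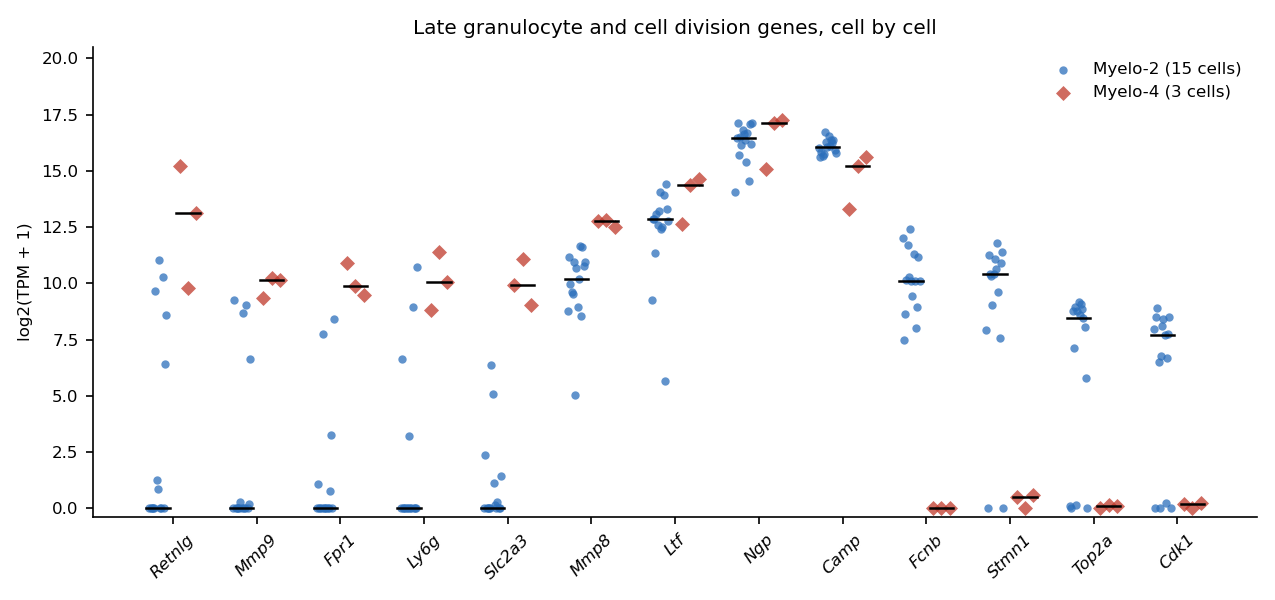
Level of 13 genes in each Myelo-2 cell (blue circles, 15 cells) and each Myelo-4 cell (red diamonds, 3 cells), on the log2(TPM + 1) scale, with the median of each state as a black bar. Mmp9, Fpr1, Slc2a3 and Mmp8 lie wholly above Myelo-2, Fcnb lies wholly below, and Stmn1, Top2a and Cdk1 are near 0 in Myelo-4 and in a few Myelo-2 cells.

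The 3 marker genes of these states were present in both and did not separate them. Itgam was at 95.2, 304 and 652 TPM in Myelo-4 cells 54, 72 and 93, and at 6.13 to 780 TPM in Myelo-2 (median 91.9), a difference of 1.98. Id2, an inhibitor of E proteins that GFI1 is known to repress, was at 234, 256 and 634 TPM against 0 to 1312 (median 229.7), a difference of 2.09. Ltf, lactoferrin, was at 6373, 21308 and 25772 TPM against 49.6 to 21925 (median 7394), a difference of 1.60. The groups overlapped for all 3 genes, and all 3 were above 10 TPM in every Myelo-4 cell. Of the 3, Ltf was rare in the states of the gate that still carry Elane, being above 10 TPM in 1 of 20 Gran-2 cells and 0 of 3 Myelo-1 cells.

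Secondary granule genes were carried by both states, and most of them within 4-fold. Of 21 members assessed out of 24 in the table, 4 were at least 4-fold higher in Myelo-4, 0 lower and 17 within 4-fold. Their median was 0.69. The shares over all 2569 genes were 13.4% higher and 25.4% lower. Ngp, a granule protein of the cathelicidin family, was at 34704, 142144 and 158634 TPM in Myelo-4 against 17182 to 142856 (median 88800.1), and Lcn2, which binds siderophores, at 13852, 21941 and 15891 TPM against 9211 to 26448 (median 15725). The differences were 0.30 and 0.06; cell 93 lay above the Myelo-2 range for Ngp, and the other values lay within it.

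Mmp8, the neutrophil collagenase, and Camp, the cathelicidin, lay in opposite directions within this group on the TPM scale. Mmp8 was at 7030.0, 7211 and 5726 TPM in Myelo-4 and at 31.6 to 3241 TPM in Myelo-2 (median 1165), a difference of 2.80, and every Myelo-4 cell lay above every Myelo-2 cell. Camp was at 9943, 37630.0 and 50447 TPM against 50196 to 108782 (median 67885). Cells 54 and 72 lay below all Myelo-2 cells and cell 93 just above the lowest, cell 59. The Camp difference of -1.38 became 0.54 with equal medians of widely detected genes. Chil3, a chitinase-like protein, stood at 3678, 16468 and 17036 TPM against 5534 to 41130 (median 23263), a difference of -0.99 that became 0.94 under that scaling. The remaining members at least 4-fold higher were Adam8 (3.004), a membrane protease at 836 TPM in cell 54, 0 in cell 72 and 0.31 in cell 93, Ifitm6 (2.65) and Ltb4r1 (2.38), a leukotriene B4 receptor. Ifitm6 was at -0.66 and Ltb4r1 at -1.24 against cells 59 and 96 alone.

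The tertiary granule and secretory vesicle genes stood higher in Myelo-4. Of 11 members assessed out of 19, 6 were at least 4-fold higher and 0 lower, with a median of 2.33. Over all 2569 genes 13.4% were at least 4-fold higher and 25.4% lower. Of the 11, 5 passed the filter only through Myelo-4, among them Retnlg, Mmp9 and Fpr1, so the filter bears on the count and the median. Summed over all 19 members, whether assessed or not, they came to 46090.3, 6064 and 14022 TPM in cells 54, 72 and 93 against 913 to 5859 TPM (median 2141) in Myelo-2, so the 2 states did not overlap. Retnlg made up most of the sum in cells 54 and 93.

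Retnlg, a resistin-like secreted protein of neutrophils, was at 37980.2, 878 and 9031 TPM in the Myelo-4 cells. In Myelo-2 it was above 10 TPM in 5 of 15 cells and reached 2084 TPM, and the difference of 9.51 was the highest of the genes named. Cell 72 lay within the Myelo-2 range, and cells 54 and 93 above it. Mmp9, gelatinase B of tertiary granules, was at 659, 1193 and 1119 TPM against a highest value of 609.6 in Myelo-2, where 4 cells exceeded 10 TPM (difference 7.64). Fpr1, the receptor for bacterial formyl peptides, was at 1894, 943 and 707 TPM against at most 344, with 2 Myelo-2 cells above 10 TPM (difference 8.66). For Mmp9 and Fpr1 all 3 Myelo-4 cells lay above all 15 Myelo-2 cells. Fcgr3, a low-affinity IgG receptor, was at 665, 512 and 423 TPM in Myelo-4 and above 10 TPM in 6 Myelo-2 cells (5.71), but it was also high in Gran-2, with a median of 539 TPM and 19 of 20 cells above 10 TPM. Ptprc (3.01), the phosphatase CD45, and Cd33 (2.33) made up the 6. Fpr2, another formyl peptide receptor, was at 0.32, 0 and 666 TPM and above 10 TPM in 5 Myelo-2 cells, and Alox5, which makes leukotrienes, was at 250.45, 0 and 0 TPM against 9 Myelo-2 cells above 10 TPM.

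The other genes of the 15 highest include surface and cytoskeletal proteins of neutrophils. Ly6g, the surface antigen by which mouse neutrophils are recognised, was at 449, 2695 and 1059.5 TPM in Myelo-4 and above 10 TPM in 3 Myelo-2 cells, up to 1687 in cell 96 (difference 8.12). Ly6g was added to the table outside the TPM total, and its reads can be shared with paralogs of the Ly6 family. Slc2a3, a glucose transporter, was at 973, 2193 and 531 TPM against at most 81.6 (difference 8.90), without overlap. Padi4, which turns arginine of histones into citrulline, was at 269.5, 22.3 and 1263 TPM against 2 Myelo-2 cells above 10 TPM (6.03). Vasp, which lengthens actin filaments, was at 364, 1018 and 389 TPM against at most 116 (6.15), and Wipf1, a partner of the Wiskott-Aldrich protein, at 102, 155 and 346 TPM against at most 71.04 (6.43); both were without overlap. Anxa5, an annexin, was at 699, 927 and 954 TPM against 4 Myelo-2 cells above 10 TPM (7.33), but 15 of 20 Gran-2 cells exceeded 10 TPM. The remaining genes were Ankrd22 (9.05), Slfn4 of the Schlafen family (7.60), the interferon-inducible Ifi27 (7.01), Ndufs3 of respiratory complex I (6.59), the kinase Dstyk (6.19) and the ubiquitin-like Ubl3 (5.73). In the 3 Myelo-4 cells 15, 15 and 14 of these 15 genes exceeded 10 TPM, Dstyk in cell 93 being the exception, and in the Myelo-2 cells between 0 and 8, the 8 in cell 96. The 15 were picked as the largest differences among genes above 0 in all 3 Myelo-4 cells. These counts therefore follow from the choice. All but Vasp, Padi4 and Ubl3 passed the filter only through Myelo-4.

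Receptors and adhesion molecules of mature neutrophils were partly in place. Among 18 assessed genes of adhesion and migration, 5 stood at least 4-fold higher in Myelo-4 and 1 lower, with a median of 0.98 for all 18. Of these 18, 5 passed the filter only through Myelo-4. C5ar1, the receptor for complement fragment C5a, was at 56.1, 345 and 743 TPM against 5 Myelo-2 cells above 10 TPM (5.59). Ccr1, a chemokine receptor, was at 2.80, 714 and 500.1 TPM against 3 Myelo-2 cells above 10 TPM (4.98). Selplg, the ligand of P-selectin, was at 67.7, 150.3 and 22.1 TPM against 6 Myelo-2 cells above 10 TPM (3.36).

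Genes of mature blood neutrophils were higher in part, and differently in each cell. Of 20 assessed out of 32 in the table, 9 were at least 4-fold higher and 1 lower (median 1.66), and 5 of the 20 passed the filter only through Myelo-4. Taken cell by cell against the Myelo-2 mean, the median of the list was 3.38 in cell 54, -0.69 in cell 72 and 1.30 in cell 93. Cxcr2, the chemokine receptor that brings neutrophils out of the marrow, was at 326, 1.21 and 19.4 TPM against 1.18 to 27.5 in Myelo-2, so that cell 54 alone lay above the range. Csf3r, the receptor for G-CSF, was at 45.8, 0.05 and 1.28 TPM, with 5 Myelo-2 cells above 10 TPM. Ifitm1, a membrane protein that blocks virus entry, was at 1594, 100.4 and 0 TPM against 0 in all 15 Myelo-2 cells. Cxcl2, a chemokine for neutrophils, was at 636, 1036 and 0 TPM, with 2 Myelo-2 cells above 10 TPM. Il1b and Ccl6, which mature neutrophils carry, were listed at 0 in all 18 cells.

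Transcripts of elastase, myeloperoxidase and the related proteases were low in most cells of both states, while Fcnb parted them. Fcnb, a ficolin that binds microbial sugars, was at 0 in all 3 Myelo-4 cells. In the 15 Myelo-2 cells it was at 178 to 5451 TPM (median 1097). The difference of -10.12 was the lowest of all genes named. Fcnb passed the filter only through Myelo-2 and was named as 1 of the 15 lowest, so this rank follows from the choice. Every one of the 4 Gran-1 cells (1145 to 3350.2 TPM), 20 Gran-2 cells (66.3 to 7949 TPM) and 3 Myelo-1 cells (4432 to 7996 TPM) also held Fcnb. So did cells 59 and 96 (178 and 1082 TPM). Of the Gran and Myelo cells in the gate, the 3 Myelo-4 cells were those listed at 0. Elane, neutrophil elastase, was at 7.48, 2.16 and 2.29 TPM in Myelo-4, and above 10 TPM in 5 Myelo-2 cells, up to 7821 (difference -3.08, but 0.35 against cells 59 and 96 alone and 0.27 against Myelo-2 cells of like gene number). Mpo, myeloperoxidase, was at 3.75, 2.87 and 3.78 TPM with 2 Myelo-2 cells above 10 TPM, and Ctsg, cathepsin G, stayed under 10 TPM in all 18 cells. Ms4a3 was at 0.84, 0.65 and 0 TPM against 10 Myelo-2 cells above 10 TPM (-5.56), and Prtn3, proteinase 3, at 0.44, 0.68 and 1.62 TPM against 5 such cells (-3.18). Ctsd and Ctsh, lysosomal cathepsins that sit in the same list, were higher (3.91 and 3.58). Past 4-fold, 6 of 15 assessed members were lower and 2 higher, against 25.4% and 13.4% of all 2569 genes. The median of the 15 was -0.61, against -0.45 for all 2569 genes, and became 1.22 with equal medians of widely detected genes. Summed over all 19 members in the table, the list was at 17021, 41383 and 53425 TPM in Myelo-4. Myelo-2 cells were at 6354 to 48325 TPM (median 24527), so cell 93 lay above that range and cells 54 and 72 within it. Lyz2 made up most of the sum in each Myelo-4 cell, at 15269, 37008 and 44817 TPM against 318 to 37573 TPM (1.52).

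**Figure D2:**
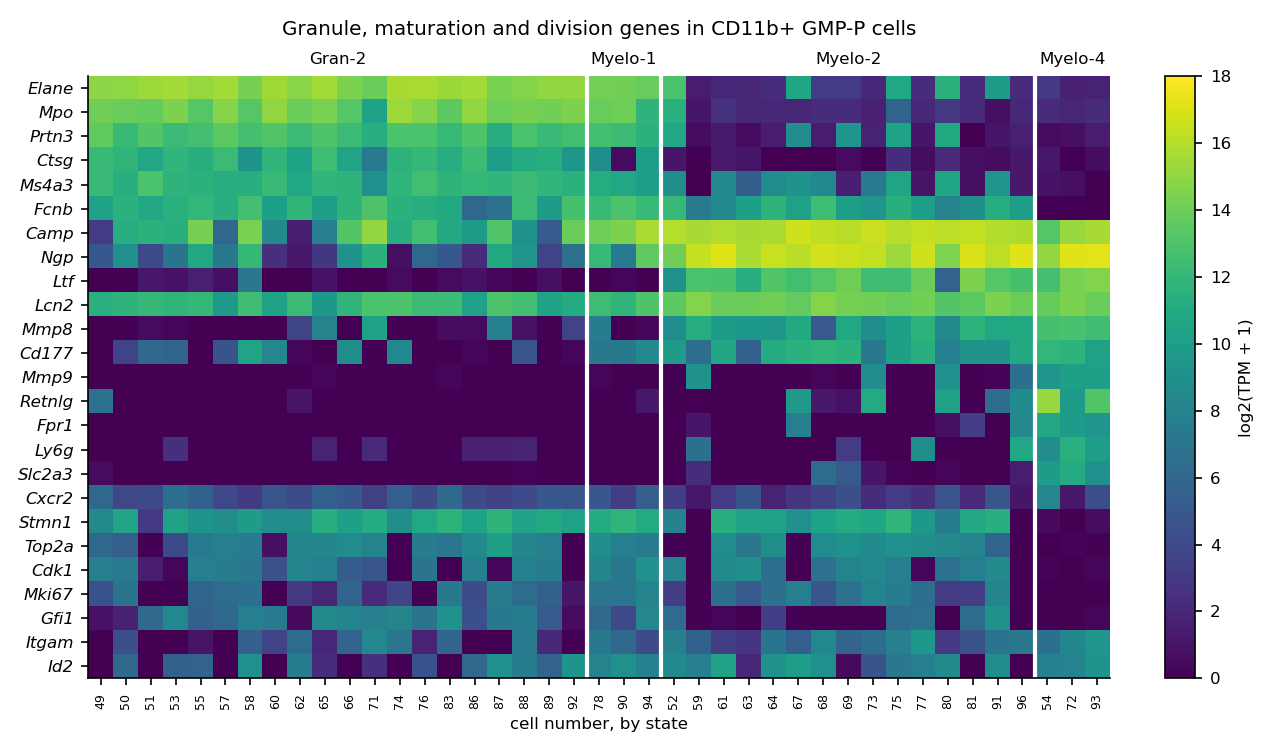
Level of 25 genes (rows) in each Gran-2, Myelo-1, Myelo-2 and Myelo-4 cell of the CD11b+ GMP-P gate (columns, by cell number), as log2(TPM + 1) on a colour scale from 0 (dark) to 18 (yellow). Elane and Mpo are bright in Gran-2 and Myelo-1, Ltf is bright in Myelo-4 and most Myelo-2 cells, Camp is bright from Myelo-1 on and in some Gran-2 cells, Fcnb is at 0 in Myelo-4 and above 0 in every other cell shown, and Mmp9, Fpr1 and Slc2a3 are bright in all 3 Myelo-4 cells and in few others.

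Some of the genes higher in Myelo-4 were rare in earlier states of the gate, and others were not. Mmp9, Fpr1, Slc2a3 and Ly6g exceeded 10 TPM in 0 of 20 Gran-2 and 0 of 3 Myelo-1 cells, and Retnlg in 1 Gran-2 cell at 109 TPM. Mmp8 exceeded 10 TPM in 5 of 20 Gran-2, 1 of 3 Myelo-1, 15 of 15 Myelo-2 and 3 of 3 Myelo-4 cells. Cxcr2, by contrast, exceeded 10 TPM in 18 of 20 Gran-2 and 2 of 3 Myelo-1 cells, against 5 of 15 Myelo-2 and 2 of 3 Myelo-4 cells. The summed tertiary granule list was at 629.7 to 6160.3 TPM in Gran-2 (median 2189), about the level of Myelo-2 (median 2141), with the highest Gran-2 cell just above Myelo-4 cell 72 (6064 TPM). Ltf was above 10 TPM in 1 of 20 Gran-2 cells and in all 18 Myelo-2 and Myelo-4 cells, whereas Mmp9 exceeded 10 TPM in 4 of 15 Myelo-2 cells and all Myelo-4 cells.

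Transcripts of cell division were at or near 0 in Myelo-4. Top2a, the topoisomerase that untangles chromosomes, was at 0, 0.11 and 0.09 TPM in Myelo-4, and its median in Myelo-2 was 349 TPM with 11 of 15 cells above 10 TPM (difference -6.03). Cdk1, the kinase that starts mitosis, was at 0.14, 0 and 0.17 TPM against a median of 207 (-5.60), and Mki67, the proliferation antigen, at 0.04, 0 and 0 TPM against a median of 91.1 (-5.16). Stmn1, which destabilises microtubules, was at 0.40, 0 and 0.49 TPM against a median of 1341 with 13 cells above 10 TPM (-8.46). The groups overlapped for all 4 genes, because a few Myelo-2 cells were at or near 0 as well. Cdca8, a subunit of the chromosomal passenger complex, was at 0 in all Myelo-4 cells and above 10 TPM in 13 Myelo-2 cells (-6.64).

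Summed over all 33 mitosis genes, Myelo-4 cells held 1.69, 6.72 and 5.96 TPM, with 0 members above 10 TPM in any of them. Myelo-2 cells held 2.14 to 7599 TPM (median 3914) with 0 to 21 members above 10 TPM (median 16). The low end of Myelo-2 was cells 96 (2.14 TPM) and 59 (57.02 TPM), where Top2a, Cdk1 and Stmn1 were all at 0, and these are also its cells of fewest genes. Of 24 mitosis genes assessed 23 were at least 4-fold lower in Myelo-4, 0 were higher and the median was -3.54. Of these 24, 19 passed the filter through Myelo-2 alone. Without cells 59 and 96 the median was -3.83, and against those 2 cells alone it was 0.09. The 2 Myelo-2 cells with the lowest mitosis sums had the fewest genes detected, and the part of gene number in this result was not tested.

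**Figure D3:**
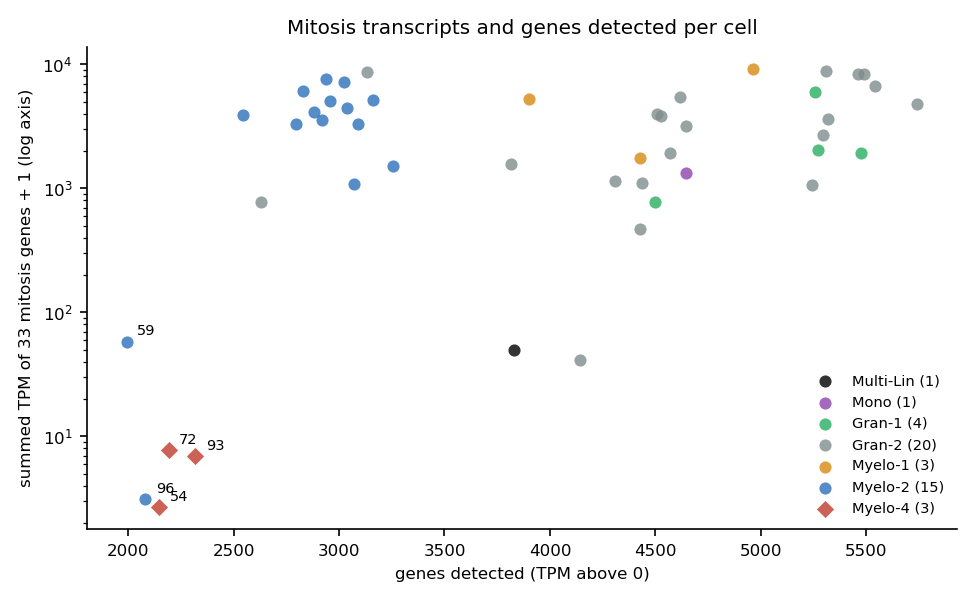
Summed TPM of 33 mitosis genes plus 1 (log axis) against the number of genes detected, for each of the 47 CD11b+ GMP-P cells, coloured by state, with the numbers of cells in the legend. The 3 Myelo-4 cells (red diamonds) lie at 1.69 to 6.72 TPM and 2148 to 2319 genes beside Myelo-2 cells 96 and 59, and the other 13 Myelo-2 cells lie higher on both axes.

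Most assessed genes of DNA replication were lower, 11 of 14, while Mcm3 (0.84), Rfc2 and E2f1 (both 0.14) were not. Of 14 assessed out of 30, 9 were at least 4-fold lower and 0 higher (median -2.66, and 0.02 against cells 59 and 96 alone). Of these 14, 9 passed the filter only through Myelo-2. Rrm2, a subunit of ribonucleotide reductase, was at 0.18, 0 and 0.22 TPM against 12 Myelo-2 cells above 10 TPM (-6.91), and Pcna, the replication clamp, was at 0 in all Myelo-4 cells with 8 Myelo-2 cells above 10 TPM (-4.04). Slbp (-4.03), which binds histone messages, and Rrm1 (-3.97) were lower too. The summed list was at 2.5 and 8.66 TPM in cells 54 and 93 but at 1957 TPM in cell 72, nearly all from Rfc2, a subunit of the clamp loader, at 1867 TPM. Genes that serve chromatin and division outside these lists were among the 15 lowest: Asf1b, a histone chaperone (-7.42), Cbx3, a heterochromatin protein (-7.58, and 1.41 against cells 59 and 96 alone), and Hist1h2ao, a histone H2A gene whose reads can be shared with near-identical copies (-8.02).

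Inhibitors of growth were higher in part. Of 6 assessed genes of cell cycle inhibition and quiescence, 3 were at least 4-fold higher and 1 lower. Shares over all 2569 genes were 13.4% and 25.4%. The median of 1.92 for the 6 was 0.20 without cells 59 and 96 and -0.26 against Myelo-2 cells of like gene number. Btg2, an antiproliferative gene, was at 3054, 19.96 and 891 TPM against 5 Myelo-2 cells above 10 TPM (5.40). Btg1, its relative, was at 397, 644 and 38.2 TPM against 8 (3.96), and Mxd1, which opposes MYC, at 50.9, 0.64 and 529 TPM against 4 (2.70). Among the cyclin kinase inhibitors Cdkn1b was at 82.5, 39.6 and 15.1 TPM with 11 Myelo-2 cells above 10 TPM (1.13), while Cdkn2d was lower (-4.71), at 0, 1.01 and 0 TPM against 8 Myelo-2 cells above 10 TPM. Cdkn1a stayed under 1 TPM in all 18 cells.

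The transcription factors of the granulocyte path showed no shared direction. Gfi1 was at 0, 0 and 0.18 TPM in Myelo-4, and above 10 TPM in 5 of 15 Myelo-2, 3 of 3 Myelo-1 and 16 of 20 Gran-2 cells. It did not pass the filter, and a missing transcript in 3 cells of few genes does not show that it was absent. The R412X change need not alter the transcript level, so these values do not check the genotype. Cebpe, which drives secondary granule genes, was at 12.1, 11.4 and 29.9 TPM against 0 to 756 (median 39.7), a difference of -0.97 with full overlap. Spi1, which encodes PU.1, was at 123, 10.97 and 126 TPM against 4 Myelo-2 cells above 10 TPM (3.15), but at -0.86 against cells 59 and 96 alone and -0.12 against Myelo-2 cells of like gene number. Klf6 (3.70) was higher and Fos (-3.31) lower, the latter at 0, 813 and 0 TPM. Of 10 assessed 2 were at least 4-fold higher and 1 lower (median -0.42), against 13.4% and 25.4% of all 2569 genes. Of 7 assessed known targets of GFI1, 2 were at least 4-fold higher, Id2 and Zfp36 (2.10), an RNA-binding decay factor. Elane was the 1 at least 4-fold lower, and the median of the 7 was 0.22. Irf8, the monocyte and dendritic factor that GFI1 represses, was at 0 in all 18 cells.

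Most assessed genes of protein synthesis and respiration were lower in Myelo-4, but less so against Myelo-2 cells of few genes. Of 79 assessed cytosolic ribosomal protein genes out of 83, a list taken by symbol after values were seen, 55 were at least 4-fold lower and 1 was higher, with a median of -2.99. Their summed level was 8186, 9261 and 11380.2 TPM in Myelo-4 and 10505 to 58742 TPM (median 26558) in Myelo-2, the low end being cell 59. Cells 54 and 72 lay below all Myelo-2 cells and cell 93 within the range. Rps18 (-8.06), Rpl28 (-7.22), Rps4x (-6.81) and Rps28 (-6.80) were among the 15 lowest genes, and reads of ribosomal protein genes can be shared with their many pseudogenes. Of the 79, 25 passed the filter only through Myelo-2. Shares past 4-fold over all 2569 genes were 25.4% lower and 13.4% higher. Setting the medians of widely detected genes equal gave a list median of -1.70. The list median was -1.59 against Myelo-2 cells of like gene number and -0.58 against cells 59 and 96 alone. Past 4-fold, 13 of 25 assessed genes of oxidative phosphorylation were lower and 2 higher. Of these 25, 7 passed the filter only through Myelo-2. Their median of -2.49 was -0.54 against Myelo-2 cells of like gene number and -0.38 against cells 59 and 96 alone. The part of gene number in both lists was not tested. Ndufa4 (-5.59), Cox5a (-5.04) and Cyc1 (-4.31) were lower and Ndufs3 (6.59) higher. The rest of the 15 lowest were Calm2 (-8.51), Tagln2 (-7.81), Slc25a5 (-6.86), Ndufb11 (-6.83) of complex I and Snrpg (-6.81) of the spliceosome. Calm2 encodes calmodulin, Tagln2 an actin-binding protein and Slc25a5 a mitochondrial ADP/ATP carrier. Slc25a5 was at 0.07 against cells 59 and 96 alone. The 15 lowest were picked as the largest negative differences among genes above 0 in at least 12 of 15 Myelo-2 cells. Their place therefore follows from the choice. All but Stmn1, Cbx3, Rrm2, Slc25a5 and Ndufb11 passed the filter only through Myelo-2.

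**Figure D4:**
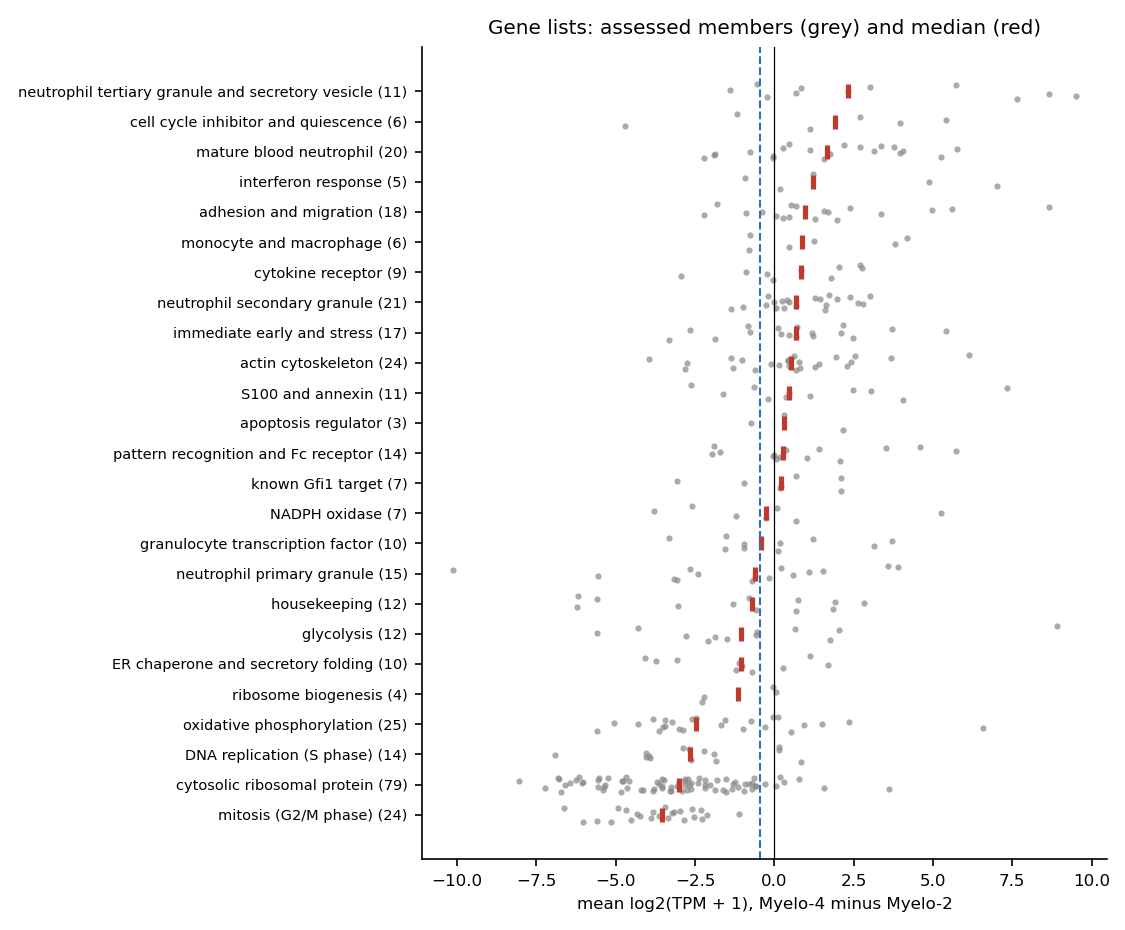
Difference of mean log2(TPM + 1), Myelo-4 minus Myelo-2, for the assessed members (grey points) of the gene lists with at least 3 of them (number in brackets), with the list median in red, a solid line at 0 and a dashed blue line at -0.45, the median of all 2569 genes. Tertiary granule genes lie highest by median (2.33) and mitosis genes lowest (-3.54).

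The 3 Myelo-4 cells differed among themselves. Cell 54 had the highest Retnlg, Cxcr2, Ifitm1, Adam8 and Csf3r of the 3 and the lowest Ngp, Camp, Ltf and Chil3. It also had Kit, the CD117 gene, at 113 TPM, where cells 72 and 93 were at 0 and no Myelo-2 cell passed 10 TPM. Cd34, a progenitor marker, was under 1 TPM in all 18 cells.

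Cell 72 carried transcripts of macrophages. C1qb and C1qc, chains of the complement component C1q, were at 1924 and 453 TPM there, with 0 TPM in cells 54 and 93 and in all 15 Myelo-2 cells. Csf1r, the receptor of the macrophage growth factor, was at 103 TPM and Mertk, a receptor for apoptotic cells, at 41.2 TPM, both at 0 in the other 17 cells. Apoe, apolipoprotein E, was at 661 TPM and exceeded 10 TPM in 1 Myelo-2 cell, while Ear2, an eosinophil-associated ribonuclease at 2609.6 TPM, exceeded 10 TPM in 8. C1qa was at 0. Among the 29 cells of the gate outside the 2 states, C1qb exceeded 10 TPM in 1, Apoe in 3 and Csf1r in 2. In the GMP gate Apoe exceeded 10 TPM in 14 of 45 cells, Csf1r in 17 and C1qb in 0. C1qa, C1qc, Mertk and Ear2 exceeded 10 TPM in 0 cells of both these groups. These genes were chosen after their values were seen. Of the 34 monocyte and macrophage genes in the table, 10 exceeded 10 TPM in cell 72, 2 in cell 54 and 4 in cell 93, against 2 to 5 in Myelo-2 cells, and their summed level was 11414, 3282 and 1071 TPM in that order against 323 to 4725 TPM. The part of these transcripts in the values of cell 72 was not tested, and doublets were not called. Without cell 72, 308 genes were at least 4-fold higher and 720 lower. Of the 6 assessed, 2 were higher, Lgals3 (4.17), which granulocytes also express, and Cd68 (3.82), which came from cell 93 at 541 TPM.

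Markers of the other lineages were scarce. The numbers assessed were 0 of 18 erythroid, 1 of 12 B cell (Cd22, 0.07), 1 of 20 T and NK cell (Nkg7, -2.39, but 0.97 against Myelo-2 cells of like gene number and 0.73 against cells 59 and 96 alone), 1 of 20 dendritic cell (Xcr1, 0.41), 1 of 12 eosinophil (Ear2, -0.75) and 1 of 13 megakaryocyte genes (Fli1, -1.94). Of 18 basophil and mast cell genes 2 were assessed, with Hdc, which makes histamine and is also expressed in neutrophil precursors, at 2.33, 960.25 and 614 TPM against 6 Myelo-2 cells above 10 TPM (3.57). Of 19 stem and progenitor genes 2 were assessed, Lmo2 (0.32) and Gata2 (0.14). The single assessed member of the Id and E protein list was Id2.

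Of the Myelo-2 cells, 59 and 96 were the closest to Myelo-4 by correlation. Besides their low mitosis sums, cell 96 held Mmp9 at 97.8, Fpr1 at 344, Retnlg at 383 and Ly6g at 1687 TPM, and cell 59 held Mmp9 at 609.6 and Ly6g at 98.8 TPM. In cell 59 Retnlg was at 0 and Fpr1 at 1.1 TPM. Both cells held Fcnb, and Slc2a3 was at 1.67 TPM in cell 96 and 4.21 TPM in cell 59, under every Myelo-4 cell. Mmp9 and Retnlg were not particular to these cells. Myelo-2 cells 73 and 80 held Retnlg at 2084 and 1243 TPM and Mmp9 at 411 and 517 TPM. Their Top2a was at 384 and 349 TPM, their Fpr1 at 0 and 0.68 TPM and their Ly6g at 0 TPM. The tertiary granule list kept a median of 1.97 against cells 59 and 96 alone and 2.48 without them. Across 7088 genes, Pearson's r with the Myelo-4 mean was 0.546 and 0.541 in cells 59 and 96. It was 0.435 to 0.473 in the other 13 Myelo-2 cells. With the mean of the 14 other Myelo-2 cells, r was 0.572 in cell 59 and 0.564 in cell 96, so both stayed nearer their own state. A mean over 14 cells is less noisy than one over 3. Cells 59 and 96 also had the fewest genes of Myelo-2, and the part of gene number in r was not tested. These values describe cells of 1 gate.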

How the data were processed

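The data are single-cell RNA-seq values of 92 cells, of which 18 are described here. The authors deposited log2 values of TPM plus 1 for 23956 gene symbols. Without Ly6g, which sits outside the total, TPM summed to between 1000000 and 1000001 in each cell. The tools Bowtie2 and RSEM and the build mm9 are named in the submitters' processing notes, without versions. The authors' second deposited file names the state of each cell. TPM keeps no depth, so genes detected stand in for it and no intervals were computed.

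Values were taken back to TPM or kept as log2(TPM + 1), and differences of means over cells were computed with Python 3.11.15, numpy 2.4.6 and pandas 2.3.3; the computation was checked on simulated data. All cells were kept, and doublets were not called. Genes entered if above 0 in at least 2 of 3 Myelo-4 or 8 of 15 Myelo-2 cells, with a size rule of 4-fold; a level above 10 TPM was used for counts of cells. There was no test, because the gate is 1 set of cells without a replicate.

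Named genes were the 15 highest differences among genes above 0 in all 3 Myelo-4 cells, the 15 lowest among genes above 0 in at least 12 of 15 Myelo-2 cells, up to 4 members of each of 33 lists with the largest absolute difference, and 17 set genes, among them Itgam, Id2, Ltf, Gfi1, Elane, Camp and Top2a. Other named genes, and the cytosolic ribosomal protein list, were chosen after their values were seen. A few genes that meet the rule are not reported here. The members and lists were chosen with earlier results of these data known. Alternatives changed the pseudocount, filter, size rule, scaling and the cells compared.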

Additional observations from a re-analysis of the deposited data

How the results depend on the processing

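The counts of genes depended on the settings. Genes at least 4-fold higher (343) became 152 with a pseudocount of 10, 520 with no filter and 806 with equal medians of widely detected genes, and 588 and 168 passed 2-fold and 8-fold. Genes at least 4-fold lower (653) became 238 with a pseudocount of 10, 1013 by the ratio of mean TPM, 1547 against all other cells of the gate and 339 against Myelo-2 cells 59 and 96 alone, and 1024 and 343 passed 2-fold and 8-fold. Genes with all Myelo-4 cells above (10) became 60 with equal medians, 114 against Myelo-2 cells of like gene number, 25 and 43 against odd- and even-numbered Myelo-2 cells, 16 without cells 59 and 96 and 173 against those alone. Genes with all below (12) became 101, 24, 107, 39 and 243 in the last 5 of these settings. Fewer cells compared leave less room for overlap. Leaving out each Myelo-4 cell gave 282 to 360 higher, 687 to 740 lower, 55 to 57 wholly above and 15 to 27 wholly below.

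Among called values, 1788 of 1809 for 110 genes and 83 of 85 for 5 lists kept their direction. Against cells 59 and 96 alone, the sign turned for the mitosis list (0.0916), the DNA replication list (0.0187), Stmn1 (0.35), Cbx3 (1.41), Slc25a5 (0.0685), Top2a (0.0916), Cdk1 (0.14), Elane (0.35), Nkg7 (0.73), Npm1 (2.45), Ppia (0.13), Tubb5 (2.003), Ifitm6 (-0.66), Ltb4r1 (-1.24), Spi1 (-0.86) and Mcl1 (-1.23). Against Myelo-2 cells of like gene number it turned for Elane (0.27), Nkg7 (0.97), Npm1 (1.51) and Spi1 (-0.12), against even-numbered cells for Ltb4r1 (-0.0582), against all other cells of the gate for Hdc (-0.0031) and by mean TPM for Il10rb (-0.0425). The cause was not tested. The settings without or with only cells 59 and 96 were chosen after seeing the data. No paired analysis was possible because the labels do not tie cells to animals, and the differences come from no test. With 3 Myelo-4 cells, no animals named and depth unknown, the values describe these cells.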

Other observations

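Several groups of genes outside granules and division had members on both sides of 0. Over all 2569 genes 13.4% were at least 4-fold higher in Myelo-4 and 25.4% at least 4-fold lower. These shares are the background for the counts in this section. S100a8 and S100a9, the subunits of calprotectin, were among the most abundant transcripts of both states: S100a8 was at 183284, 111662 and 108144 TPM in Myelo-4 cells 54, 72 and 93 against 106907 to 249455 TPM in Myelo-2, a difference of -0.20. Of 11 assessed S100 and annexin genes 4 were at least 4-fold higher and 1 lower (median 0.47), with Anxa2 at 3.06 and S100a6 at 4.05. Of 7 subunits of the NADPH oxidase, which makes superoxide, 2 were at least 4-fold lower (Ncf4, -3.80, and Rac1, -2.60), and the median of -0.26 became 1.66 with equal medians of widely detected genes. Cybb, its membrane subunit, was at 1078, 1285 and 694 TPM against 103 to 1939 TPM. Of 24 actin cytoskeleton genes 5 were higher and 3 lower (median 0.53), with Capg at 3.69 and Msn at -3.97.

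Of 14 pattern recognition and Fc receptor genes 4 were at least 4-fold higher and 0 lower (median 0.29), among them the inhibitory receptors Lilrb4 (4.59) and Pirb (3.53). Of 9 cytokine receptor genes 3 were higher and 1 lower (median 0.85), with Ifnar1 at 2.76, Tnfrsf1a at 2.70 and Csf2rb, the shared chain of the GM-CSF receptor, at -2.96. Of 5 interferon response genes 2 were higher (median 1.23), Ifi27 and Ifi27l2a (4.89). Of 17 immediate early and stress genes 5 were higher and 2 lower (median 0.67), and of 3 apoptosis regulators 1 was higher (Mcl1, 2.16, median 0.31). Glycolysis (12 assessed, 2 higher, 4 lower) had a median of -1.04, ER chaperones (10 assessed, 0 higher, 3 lower) -1.06 and housekeeping genes (12 assessed, 1 higher, 4 lower) -0.70, and these 3 medians became 0.75, 0.82 and 1.23 with equal medians of widely detected genes. Ribosome biogenesis had 4 assessed genes, 0 higher and 2 lower (median -1.13, and -0.10 with equal medians).

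Across 7088 genes, Myelo-4 cells had a Pearson's r of 0.493 to 0.521 with the mean of the other two, 0.531 to 0.555 with the mean of 15 Myelo-2 cells, 0.390 to 0.423 with Myelo-1 and 0.401 to 0.430 with Gran-2. Means over more cells are less noisy, so the first and second of these are not on the same footing. Between single cells, the median r was 0.428 over 3 Myelo-4 pairs, 0.412 over 105 Myelo-2 pairs and 0.359 over 45 mixed pairs. These values describe cells of 1 gate.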
